A study of Mus musculus with 2 samples.

Results

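The insulin-like growth factor (IGF) axis was examined as 10 genes of the 12393 on the array: the ligands Igf1 and Igf2, the receptors Igf1r and Igf2r, and the binding proteins Igfbp2 to Igfbp7. The rule took genes by function and used no measured value, although earlier results of these data were known when it was set. All 23 probe sets annotated to 1 of these symbols alone were used. LM8 is a line of mouse osteosarcoma cells. The data came from an LM8 clone stably transfected with full-length human PHD4 (hPHD4) cDNA in pcDNA3.1, here hPHD4 cells, and from an LM8 clone given the vector without insert, here control cells. Both were kept under selection in 0.5 mg/ml G418, and each was hybridised to 1 Affymetrix array from 5 µg of total RNA. PHD4 is a prolyl hydroxylase of the endoplasmic reticulum membrane, from the family of oxygen-dependent enzymes that target hypoxia-inducible factor (HIF) for breakdown. Each group was 1 clone and 1 array, so no test was possible, no p-value is given, and a difference between clones cannot be told apart from the effect of hPHD4.

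IGF1 and IGF2 are secreted growth factors that activate the receptor tyrosine kinase encoded by Igf1r, which signals through insulin receptor substrates to the PI3K-AKT and RAS-MAP kinase cascades. The Igf2r product binds IGF2 without such signalling and carries it to lysosomes. The binding proteins hold IGFs outside the cell, and proteases such as PAPP-A release the ligand from them. In bone, IGFs support osteoblast growth and survival, and IGF-binding protein 5 is known to bind the matrix.

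In outline, 5 of the 10 genes were measured, that is, had a probe set above a floor on both arrays, against 60.1% of all genes. Igfbp7 was 2.17-fold lower in hPHD4 cells. Igf1r, Igf2r, Igfbp4 and Igfbp6 differed by less than 1.5-fold. Igf1 and Igfbp5 lay above the floor in hPHD4 cells alone, on every probe set they have. Igf2, Igfbp2 and Igfbp3 lay under the floor in both clones.

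The promoters of Igf1, Igfbp5 and Igfbp7, the genes that separated the clones, are shown with that of Igfbp4, which differed little. Each is the 250 bases before the start site in RefSeq (GRCm38.p6), at chr10:87860861-87861110 on the plus strand, chr1:72874866-72875115 on the minus strand, chr5:77408046-77408295 on the minus strand and chr11:99040994-99041243 on the plus strand. Capitals mark matches on either strand to the core letters of HIF response elements (ACGTG and GCGTG), the TATA box (TATAAA), the GC box (GGGCGG) and the AP-1 site (TGANTCA). Matches to ACGTG on both strands overlap at CACGTG.
Igf1 promoter: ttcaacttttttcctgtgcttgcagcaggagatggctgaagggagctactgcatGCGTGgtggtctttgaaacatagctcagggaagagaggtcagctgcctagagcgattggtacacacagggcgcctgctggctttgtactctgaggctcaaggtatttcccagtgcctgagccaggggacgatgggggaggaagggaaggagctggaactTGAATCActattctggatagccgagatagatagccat
Igfbp5 promoter: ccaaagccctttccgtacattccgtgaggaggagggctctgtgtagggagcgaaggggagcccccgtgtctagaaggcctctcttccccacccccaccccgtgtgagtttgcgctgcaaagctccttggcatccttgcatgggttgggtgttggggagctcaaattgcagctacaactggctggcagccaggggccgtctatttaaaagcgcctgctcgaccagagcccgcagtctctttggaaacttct
Igfbp7 promoter: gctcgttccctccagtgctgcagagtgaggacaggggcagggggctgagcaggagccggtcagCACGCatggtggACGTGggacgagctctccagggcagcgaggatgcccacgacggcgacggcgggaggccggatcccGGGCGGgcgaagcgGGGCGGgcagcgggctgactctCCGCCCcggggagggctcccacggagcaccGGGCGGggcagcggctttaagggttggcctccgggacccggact
Igfbp4 promoter: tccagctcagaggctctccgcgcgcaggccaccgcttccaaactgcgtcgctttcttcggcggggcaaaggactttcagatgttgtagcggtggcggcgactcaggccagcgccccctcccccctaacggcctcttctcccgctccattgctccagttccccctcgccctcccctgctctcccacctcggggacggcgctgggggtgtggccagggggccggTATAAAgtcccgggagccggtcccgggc

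Igf1 held 1 GCGTG at 196 bases and 1 AP-1 match at 37 bases before the start site. Igfbp5 held no match to any of the 5 motifs. Igfbp7 held 1 ACGTG, 1 GCGTG and 4 GC boxes. Its GC content was 74.0%, with 69.2% for Igfbp4, 58.8% for Igfbp5 and 52.8% for Igf1. The median over all promoter windows of this length was 52.4%. Igfbp4 held a TATA box that began 28 bases before the start site. Over all 32851 promoter windows of this length, 16.6% held ACGTG, 28.2% GCGTG, 12.4% the TATA box, 32.7% the GC box and 6.75% the AP-1 letters. The 10 genes had 14 of these windows, of which 4 held ACGTG and 6 held GCGTG. A match is a description of the letters and not evidence of a site.

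The deposited values are MAS5 signals per probe set on the log2 scale, scaled by array to the same trimmed mean, 500.2 on the linear scale on both. The floor was the 40th percentile of the non-control probe sets of each array, a log2 signal of 6.34 in hPHD4 cells and 6.08 in control cells. With no replicates, the only error available was how far probe sets of the same gene disagreed in their log2 ratio. Pooled over genes in 3 groups of brightness, this spread had an SD of 0.40 for the dimmest, 0.37 for the middle and 0.28 for the brightest genes. It leaves out differences between cultures, clones, labelling and arrays. Of 10 osteoblast lineage markers, 7 had a probe set of their own and all 7 were measured, Sp7, Alpl and Col1a1 among them. Their summed linear levels were 34356 in hPHD4 cells and 38929 in control cells. The brightest of them, Col1a2, was at 12598 in hPHD4 cells and 17021 in control cells. By log2 ratio, 4 of the 7 were higher and 3 lower in hPHD4 cells, with a median of 0.21, opposite to the sums. Of the 7, 1 was past 1.5-fold, Ibsp, with a log2 ratio of 1.09. Leukocyte markers were measured for 4 of 7 genes on the array, with summed linear levels of 539.7 in hPHD4 cells and 363.0 in control cells, and Ptprc was not measured. Endothelial markers were measured for 2 of 6 genes, with sums of 437.9 in hPHD4 cells and 456.7 in control cells, and muscle markers for 1 of 6, with 248.3 in hPHD4 cells and 293.1 in control cells. Epithelial markers were measured for 0 of 6, with sums of 156.1 in hPHD4 cells and 128.1 in control cells. These sums cover all genes of each list on the array, with signals under the floor included. Des, the only measured muscle marker, was at 116.7 in hPHD4 cells and 87.2 in control cells, opposite to the muscle sums. The part of other cells in the results was not tested, and fewer cells of a type and less RNA per cell cannot be told apart.

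**Figure D1:**
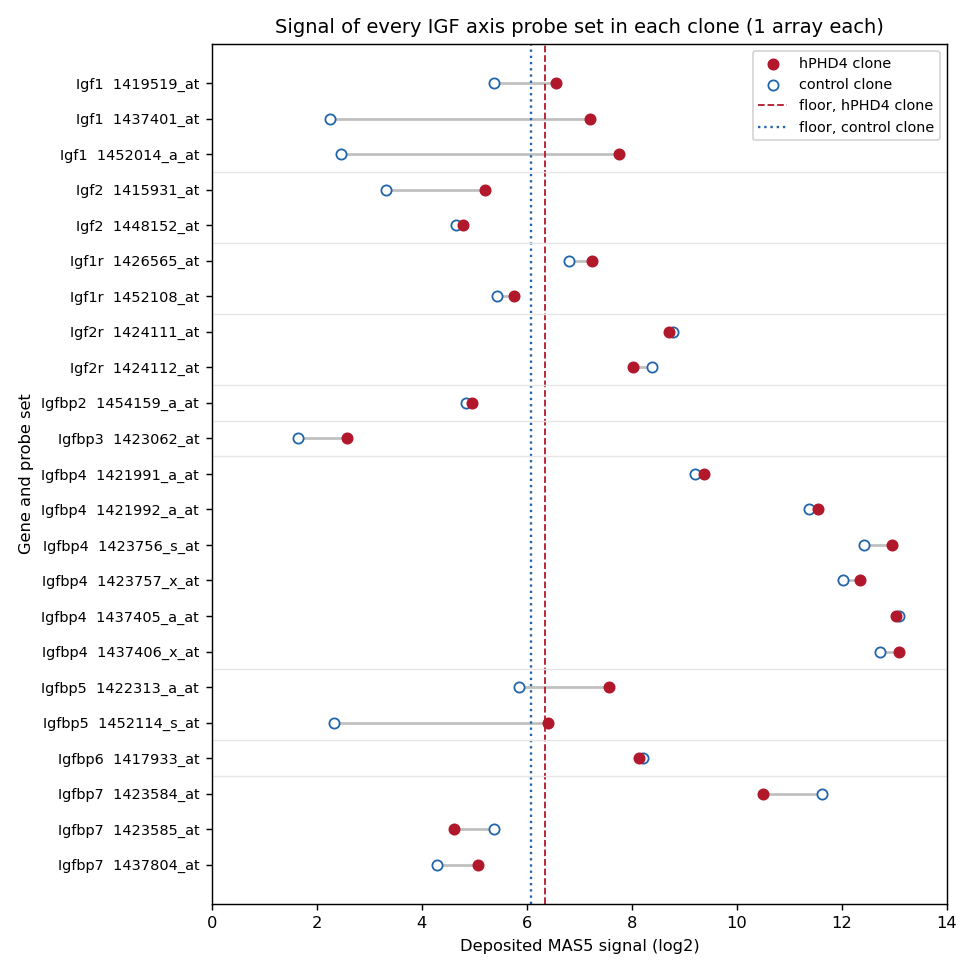
Deposited log2 signal (x axis) of each of the 23 IGF axis probe sets (y axis) in hPHD4 cells (filled red) and control cells (open blue), 1 array each, with the floor of each array as a vertical line and no error bars because there are no replicates. All 3 Igf1 and both Igfbp5 probe sets cross the floors between the clones, and the Igfbp7 probe set at 10.50 and 11.62 is the only measured one that lies over 1.5-fold apart.

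Among the ligands, Igf1 was the gene that separated the clones. Its 3 probe sets had log2 signals of 6.55, 7.21 and 7.76 in hPHD4 cells, against 5.37, 2.25 and 2.46 in control cells. All 3 lay above the floor in hPHD4 cells and under it in control cells. On the linear scale the third of these, 1452014_a_at, had signals of 217.0 in hPHD4 cells and 5.50 in control cells. Since the control value lies under the floor, only a bound is given for this probe set, the brightest. Its signal in hPHD4 cells was 3.20-fold the control floor. The other probe sets gave bounds of 1.38-fold and 2.18-fold, so the largest of the 3 is not a lower bound for the gene. With other treatments of the floor the log2 ratio of Igf1 was smaller, at 1.18 and 0.83. The bounds were computed after the values were seen, because no Igf1 signal reached the 75th percentile of the array (9.09) that bounds were planned for.

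Igf2, the fetal growth factor and an imprinted gene, was under the floor in both clones. Its probe sets had log2 signals of 5.21 and 4.79 in hPHD4 cells, and 3.33 and 4.64 in control cells. Both pairs were higher in hPHD4 cells, and neither gives a fold. Dim signals were higher across that array in general, with a 20th percentile of 4.62 in hPHD4 cells and 4.26 in control cells.

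Neither receptor reached the 1.5-fold threshold. The measured probe set of Igf1r, the signalling receptor, had a log2 signal of 7.23 in hPHD4 cells and 6.81 in control cells. This was a log2 ratio of 0.43, about the size of the spread of 0.40 between probe sets of genes of its brightness. A second Igf1r probe set lay under both floors at 5.75 in hPHD4 cells and 5.43 in control cells. Igf2r, the clearance receptor, had log2 signals of 8.70 and 8.03 in hPHD4 cells and 8.79 and 8.38 in control cells. Both of its probe sets were lower in hPHD4 cells, with a mean log2 ratio of −0.22 against a spread of 0.37.

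The binding proteins held the only measured gene past the threshold. Of the 5 measured genes of the axis, 0 were at least 1.5-fold higher in hPHD4 cells, against 8.94% of all 7452 measured genes, and 1 was at least 1.5-fold lower, against 5.22%. With 5 genes, neither count can be set apart from these shares. The median log2 ratio of the 5 genes was −0.07, beside 0.03 over all measured genes.

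**Figure D2:**
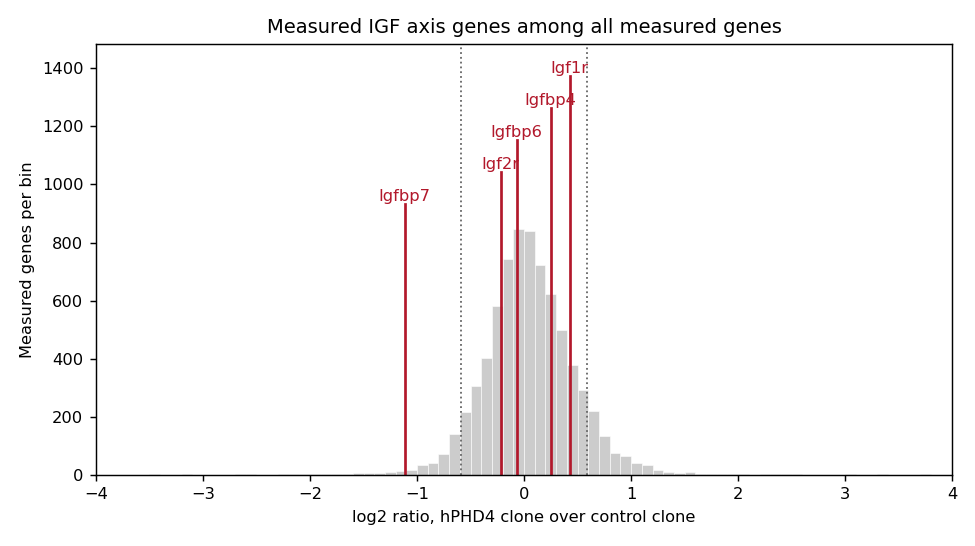
Histogram of the log2 ratio, hPHD4 clone over control clone (x axis, bins of 0.1), of all 7452 measured genes, as genes per bin (y axis), with the 5 measured IGF axis genes as red lines of arbitrary height and the 1.5-fold thresholds dotted. Igfbp7 lies at −1.12 in the lower tail, and the other 4 lie between −0.22 and 0.43 inside the thresholds.

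Igfbp7, a secreted protein of blood vessels and stroma that binds IGFs weakly, was the gene past the threshold. Probe set 1423584_at had linear signals of 1451 in hPHD4 cells and 3147 in control cells, a log2 ratio of −1.12, beyond the spread of 0.28 for genes of its brightness. At least a 2-fold lower value was held by 0.98% of measured genes. The other probe sets of Igfbp7 lay under both floors and disagreed with each other, at log2 signals of 4.61 and 5.07 in hPHD4 cells and 5.37 and 4.29 in control cells. When the floor was set at the 20th percentile, 1 of these entered, the one that was higher in hPHD4 cells, and the mean log2 ratio was then −0.17. The one that was lower in hPHD4 cells stayed out, as its signal of 4.61 there lay just under that floor of 4.62. With dim signals raised to a common floor, the 2 dim probe sets each counted as a log2 ratio of 0, and the mean was −0.37. The gene passes the threshold in neither setting, but the second value follows from averaging in those 2 probe sets and adds no information on the gene. Measured genes of chromosome 5, where Igfbp7 lies, had a median log2 ratio of −0.19 over 491 genes. Other chromosomes with genes of the axis had medians of 0.19 (chromosome 7), −0.17 (17), 0.16 (1), −0.11 (15), 0.07 (11) and 0.02 (10). Any bearing of these medians on single genes was not tested.

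Igfbp4, a binding protein that inhibits IGF action and is cleaved by PAPP-A, was measured by 6 probe sets, the most of any gene of the axis. Their linear signals ran between 662.4 and 8657 in hPHD4 cells and between 585.8 and 8727 in control cells. Among these, 5 of the 6 were higher in hPHD4 cells, with log2 ratios between −0.07 and 0.54. The mean was 0.25, with an SD between the 6 probe sets of 0.21, against a spread of 0.28 for bright genes. Read from its brightest probe set alone, Igfbp4 had a log2 ratio of −0.07. Probe sets ending in _s_at or _x_at can share sequence with other transcripts, and only sets of the _a_at, _s_at and _x_at kinds represent this gene.

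Igfbp5 behaved like Igf1 in crossing the floor. Its 2 probe sets had log2 signals of 7.57 and 6.40 in hPHD4 cells, against 5.86 and 2.32 in control cells. Both lay above the floor in hPHD4 cells, the second by little, and both under it in control cells. On the linear scale the first, 1422313_a_at, was at 189.4 in hPHD4 cells and 58.0 in control cells. Its signal in hPHD4 cells was 2.79-fold the control floor, while the second probe set gave a bound of 1.24-fold. The larger value is thus not a lower bound for the gene. Its log2 ratio was 0.64 with the control signals raised to 1 common floor, which can only shrink the ratio.

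To read this against the array, 4941 genes were not measured in both clones. Of these, 11.2% had a probe set above the floor in hPHD4 cells alone and none in control cells alone, and 9.07% the reverse. Among the 5 unmeasured IGF axis genes, 2 were of the first kind and 0 of the second.

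Igfbp6, which prefers IGF2 to IGF1, had 1 probe set, with log2 signals of 8.14 in hPHD4 cells and 8.21 in control cells. The log2 ratio of −0.07 was smaller than the spread of 0.37. Igfbp2, a binding protein often raised in tumours, was under the floor in both clones, at 4.96 in hPHD4 cells and 4.83 in control cells. Igfbp2 and Igfbp5 are neighbouring genes on chromosome 1, and they lay on different sides of the floor in hPHD4 cells. Igfbp3, the main carrier of IGFs in the circulation, was at 2.57 in hPHD4 cells and 1.63 in control cells, far under both floors. Its neighbour on chromosome 11, Igfbp1, was also under both, at 4.35 in hPHD4 cells and 5.70 in control cells.

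The floor decided what could be said of Igf1 and Igfbp5. With it at the 20th percentile, 4.62 in hPHD4 cells and 4.26 in control cells, the log2 ratio was 1.18 for Igf1 and 1.71 for Igfbp5, each from the 1 probe set then measured. With every dim signal raised to 1 common floor, the ratios were 0.83 for Igf1 and 0.64 for Igfbp5. Both genes were at least 1.5-fold higher in hPHD4 cells in these settings, as were 16.4% of all measured genes in the first and 4.87% in the second, and neither had a value under the others.

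**Figure D3:**
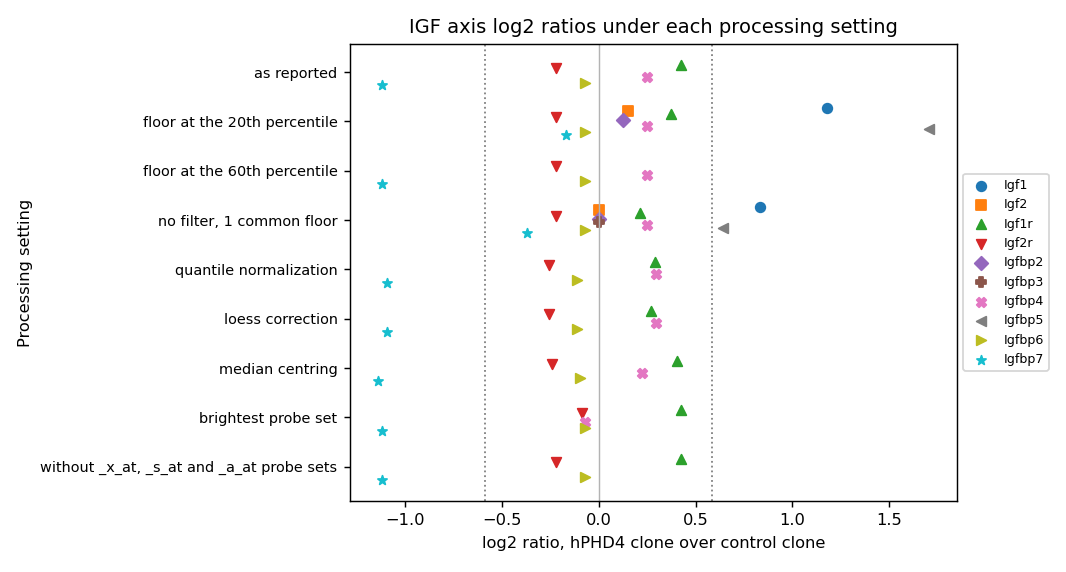
Log2 ratio, hPHD4 clone over control clone (x axis), of each IGF axis gene (symbols) under each processing setting (y axis), with the 1.5-fold thresholds dotted and a gene left out where it was not measured. Igf1 and Igfbp5 appear in 2 settings, both times above the upper threshold. Igfbp7 moves from −1.12 to −0.17 once the floor is lowered to the 20th percentile, where a dim probe set of opposite sign enters its mean.

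The genes around the axis were read from 6 lists holding 108 genes, of which 89 were on the array and 66 were measured. At least 1.5-fold higher were 5 of the 66 (7.58%, against 8.94% of all measured genes) and at least 1.5-fold lower 3 (4.55%, against 5.22%). Their median log2 ratio was 0.01. A floor at the 20th percentile left 75 measured, of which 12 (16.0%) were higher and 3 (4%) lower, against 16.4% and 6.64% of all genes measured there. A floor at the 60th percentile left 45, of which 3 (6.67%) were higher and 0 lower, against 4.71% and 4.58%.

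Among proteases of the binding proteins and their inhibitors, 5 genes were measured, with 1 higher and 1 lower past the threshold and a median of −0.01. Htra1, a secreted serine protease that cleaves IGF-binding proteins, had mean signals of 1940 in hPHD4 cells and 468.9 in control cells. Its log2 ratio of 2.05 came from probe sets at 1.77 and 2.33, and the spread for genes of its brightness was 0.28. The probe set at 2.33 is of the _x_at kind. With the brightest probe set, or without probe sets ending in _x_at, _s_at or _a_at, the ratio was 1.77. Pappa, which encodes PAPP-A, the protease of IGFBP-4 and IGFBP-5, had signals of 118.9 in hPHD4 cells and 184.5 in control cells. Its log2 ratio of −0.63 came from 1 probe set, and the spread for genes of its brightness was 0.40. Pappa was not among the measured genes when the floor was raised to the 60th percentile. The clones differed in opposite directions for these 2 proteases, and cleavage of the binding proteins was not tested. Among other carriers and handling genes 3 were measured and 0 passed the threshold. The highest log2 ratio of the 3 was 0.36 for Tmem219, a receptor for IGFBP-3, with signals of 240.6 in hPHD4 cells and 187.0 in control cells, and Lrp1, also a receptor for IGFBP-3, followed at 0.28, with 235.6 in hPHD4 cells and 193.9 in control cells.

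Of the insulin receptor family, its substrates and adaptors, 15 genes were measured, with 1 higher, 0 lower and a median of −0.01. The 1 was Irs1, the docking protein that couples the IGF1 receptor to PI3K, with signals of 10520 in hPHD4 cells and 6661 in control cells. Its log2 ratio of 0.66 came from 1 bright probe set, so choices of floor or probe set left it unchanged. Rescaling put it between 0.64 and 0.75, and the spread for genes of its brightness was 0.28. Ptpn11, the phosphatase SHP2, had signals of 2191 in hPHD4 cells and 2995 in control cells, a log2 ratio of −0.45 within the threshold.

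The PI3K, AKT and mTOR list had 23 measured genes, with a median of −0.12, beside 0.03 over all measured genes. Past the threshold were 1 higher and 2 lower. Deptor, an inhibitor of mTOR, had mean signals of 358.2 in hPHD4 cells and 200.8 in control cells, and its log2 ratio of 0.83 came from probe sets at 1.20 and 0.47. The probe set at 0.47 was the brightest and the only one measured at the 60th percentile floor, and Deptor was within 1.5-fold in both of those settings. Gsk3b, a kinase inhibited by AKT, had signals of 109.9 in hPHD4 cells and 220.2 in control cells, a log2 ratio of −1.003. Tsc1, of the complex that restrains mTOR, had signals of 134.9 in hPHD4 cells and 227.6 in control cells, a log2 ratio of −0.76, while a second probe set near the floor was at 0.04. Its ratio was −0.36 at the 20th percentile floor and −0.38 with 1 common floor, both within 1.5-fold. Neither Gsk3b nor Tsc1 was measured at the 60th percentile floor.

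The RAS and MAP kinase list had 10 measured genes, with 1 higher and 0 lower past the threshold. Its median was 0.14, beside 0.03 over all measured genes. Araf, a RAF kinase, had signals of 675.9 in hPHD4 cells and 333.7 in control cells, a log2 ratio of 1.02. It came from 1 probe set, so choices of floor or probe set left it unchanged, and its lowest value under rescaling was 0.99. Map2k2, the kinase MEK2, was at 0.47, although its probe sets stood at 0.03 and 0.90. The 10 measured FOXO target genes, which AKT signalling normally keeps low, had a median of 0.08, beside 0.03 over all measured genes. Past the threshold were 1 higher and 0 lower, and AKT signalling was not tested. Bcl6, a transcriptional repressor, had signals of 136.4 in hPHD4 cells and 80.5 in control cells, a log2 ratio of 0.76 that was 0.18 with the floor at the 20th percentile, where a second probe set of the opposite sign entered. Ccng2, encoding cyclin G2, was at 0.53.

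**Figure D4:**
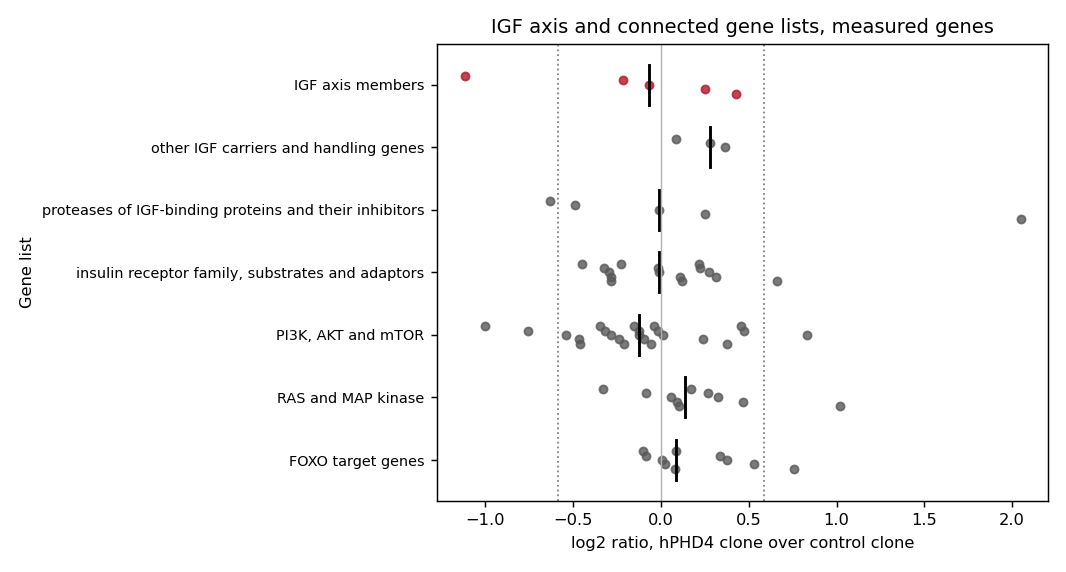
Log2 ratio, hPHD4 clone over control clone (x axis), of each measured gene (points, spread vertically for legibility) of the IGF axis (red) and of 6 connected gene lists (grey, y axis), with each list's median as a black bar and the 1.5-fold thresholds dotted. The list medians lie between −0.12 and 0.28, and Htra1 at 2.05 is the point farthest to the right.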

How the data were processed

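No test was made: each clone had 1 array, so values, folds and counts past a fold are given. The log2 signals were deposited by the authors, who used MAS5 per the submitters' processing notes (no version or settings stated). That they are base 2 and scaled to 1 target was read from the values. Of 22626 non-control probe sets, 20380 carried 1 symbol in the platform annotation, and 20351 of these were found by gene number in a table of GRCm38.p6. A gene's log2 ratio, hPHD4 clone over control clone, was the mean over its probe sets above the 40th percentile on both arrays, computed with Python 3.11.15, pandas 2.3.3 and statsmodels 0.14.6 (loess span 0.3) after no further scaling. The steps were tested on simulated data. Alternatives changed the floor, filter, scaling, choice of probe set and fold threshold. Named were all 10 genes and, from each connected list, those at least 1.5-fold apart or the 2 farthest from 0. Genes of like pattern were not sought, since 2 arrays give 1 difference per gene. The genes and lists were chosen with earlier results of these data known.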

Additional observations from a re-analysis of the deposited data

How the results depend on the processing

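No paired analysis was possible because each clone had 1 array. The count of IGF axis genes at least 1.5-fold higher in hPHD4 cells was 0 as reported, and it was 2 of 9 measured with the floor at the 20th percentile and 2 of 10 with no filter and 1 common floor, where 16.4% and 4.87% of all genes were. The count at least 1.5-fold lower was 1 as reported, and it was 0 in each of these settings, where 6.64% and 3.06% of all genes were. In both, dim signals of Igfbp7 entered its mean. Both counts were as reported at a 2-fold threshold, with the floor at the 60th percentile, under quantile normalization, loess correction and median centring, with the brightest probe set, and without probe sets ending in _x_at, _s_at or _a_at. Igf1r was not measured with the floor at the 60th percentile, nor Igfbp4 without those probe sets. Igfbp4 was −0.07 with its brightest probe set and between 0.22 and 0.30 elsewhere. Igf1r, Igf2r, Igfbp6 and Igfbp7 kept their sign wherever they had a value. Settings for genes outside the axis were added after seeing the data. Precision is limited by 1 array per clone and, for Igf1 and Igfbp5, by signals near the floor.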

Other observations

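Other probe sets near the axis also lay at low signals. Igfals, encoding the acid-labile subunit that joins IGF and IGFBP-3 in serum, had log2 signals of 6.11 in hPHD4 cells and 2.59 in control cells, both under the floor. The Igf2 antisense transcript Igf2os was at 4.42 in hPHD4 cells, under the floor, and at 6.48 in control cells, above it. Its direction was thus opposite to that of both Igf2 probe sets, which were higher in hPHD4 cells but under the floor in both clones. Dim signals were higher across the hPHD4 array in general, but by less than for Igfals, with a 20th percentile of 4.62 in hPHD4 cells and 4.26 in control cells. Igf2os went the other way.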
